A study of Mus musculus with 20 samples.

Results

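Activated CD8+ T cells given the designed IL-21 mimic 21h10 at 100 pM were compared with the same kind of cells given murine IL-21 (mIL-21) at 1 nM, the pair of conditions in experiment 1 whose profiles lay close together although the doses differed 10-fold. The comparison rests on 4 of the 20 libraries, 2 for each condition, chosen by their labels, which call the native cytokine WT and the mimic h10. All cells were wild-type CD8+ T cells isolated by negative selection from the spleen of C57BL/6J mice aged 6 to 8 weeks. They were activated for 48 hours with plate-bound anti-CD3 (2 µg/mL) and soluble anti-CD28 (1 µg/mL), rested overnight, and cultured for 24 hours with cytokine, or without it in the unstimulated group. The other groups of experiment 1 were unstimulated cells, mIL-21 at 100 pM and 21h10 at 1 nM. Experiment 2 held its own unstimulated cells and both cytokines at 10 nM and 100 nM. Each group had duplicate libraries, and all cells, unstimulated ones included, had received the same activation. Since the doses differ, the values describe these 2 conditions and not the potency of either molecule.

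IL-21 is a cytokine made mainly by helper T cells. It binds a receptor built from Il21r and the common gamma chain, and the kinases bound to these chains phosphorylate STAT proteins, chiefly STAT3, which enter the nucleus and switch on target genes. Among those targets are the SOCS-family proteins and Cish, which bind the receptor or its kinases and damp the signal. In CD8+ T cells IL-21 is known for sustaining effector function and for modulating memory.

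The 2 libraries of 21h10 at 100 pM held 52561346 and 92436444 reads on genes and those of mIL-21 at 1 nM 38337640 and 44453094. Levels below are in CPM, counts scaled to a common library size. The identity of the cells was checked against markers. The 9 listed markers of CD8 T cells and the T cell receptor complex summed to between 4211 and 4259 CPM under 21h10 at 100 pM and between 4139 and 4331 CPM under mIL-21 at 1 nM. Markers of other cells were lower, with sums of at most 259 CPM for CD4 T cells, 10.5 CPM for B cells, 5.59 CPM for NK cells, 81.8 CPM for myeloid cells and 14.3 CPM for dendritic cells in these 4 libraries, and S100a8 and S100a9 at 0 in all of them. Of the 30 members of the 7 marker lists that were tested, 2 had an unadjusted p under 0.05 and 0 were past the threshold by edgeR, DESeq2 or limma.

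Most genes were measured at closely similar levels in both conditions. Of the 13974 genes tested, 103 were past the threshold of the edgeR quasi-likelihood test, 0.737% of those tested, where 38.6% differed between the cytokines at a common dose of 100 pM and 37.7% at 1 nM. In the plot of all genes these 103 form a thin border on a narrow band, and the median size of the log2 fold change over all genes was 0.0723. The genes that differed were mostly lower with 21h10: 81 were lower (0.58% of those tested) and 22 higher (0.157%). The folds were small. Those that were lower lay between 1.14-fold and 2.43-fold, with a median of 1.30-fold, and those that were higher between 1.17-fold and 3.36-fold, with a median of 1.33-fold. Only 3 genes were lower and 4 higher by at least 1 on the log2 scale. The libraries of the conditions did not overlap for any of the 103 genes, as was true of 38.7% of all genes tested.

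**Figure D1:**
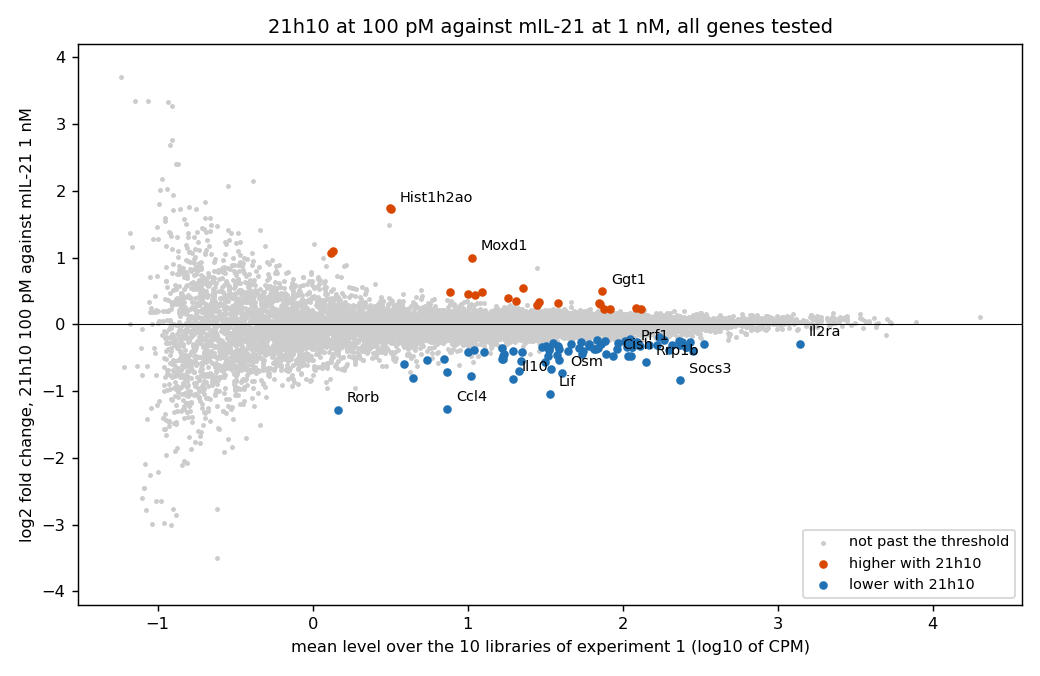
Each point is 1 of the 13974 genes tested. The x axis gives the log10 of the mean CPM over the 10 libraries of experiment 1 and the y axis the log2 fold change, 21h10 at 100 pM over mIL-21 at 1 nM, with the 81 genes past the threshold and lower in blue and the 22 higher in orange, and 6 genes not past the threshold lie beyond the axis. The cloud is narrow at high levels, and Socs3, Lif and Ccl4 stand below it.

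The number of genes past the threshold depended on the libraries used. It fell to 31 without duplicate 2 of 21h10 at 100 pM, the deepest library of the 4, and to 45 without duplicate 1, and it rose to 149 without duplicate 2 of mIL-21 at 1 nM. Libraries outside the comparison also moved it, to 199 genes, 1.38% of those tested, without duplicate 1 of 21h10 at 1 nM and to 1.35% without duplicate 2. No gene of the 103 changed direction in any of these fits. Without each of the 4 compared libraries in turn, 24 genes stayed past the threshold every time, namely Ccl4, Chd7, Cish, Gadd45g, Gcnt1, Gm12250, Hist1h2ao, Hist1h2ap, Ier3, Il10, Irgm2, Lif, Map3k8, Mex3a, Moxd1, Mxd1, Osm, Pim1, Rrp1b, Sbno2, Serpinb1a, Slc7a5, Socs3 and Zfp36. Every other gene given here as past the threshold missed it in at least 1 of those 4 fits.

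The precision of the data sets a bound on how far genes could differ. For 11040 genes, 79% of those tested, the 95% interval of the fold change lay wholly within 1.5-fold in either direction. Among the 11620 genes with a mean of at least 1 CPM the share was 94.7%, and it was 80.9% between the cytokines at 100 pM, 77.7% at 1 nM and 80.2% between the doses of mIL-21. The interval lay wholly beyond 1.5-fold for 31 genes, against 627 between the cytokines at 100 pM. Of the 103 genes past the threshold, 62 had an interval within 1.5-fold. These comparisons share libraries with one another, and their values are set side by side only.

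The genes used in the study to follow signalling and phenotype, with Il21r, showed where the difference lay. Socs3, Cish, Prf1 and Prdm1 were lower with 21h10 at 100 pM, and the other 17 were not past the threshold. The inhibitors of cytokine signalling were not alike. Socs2 had a log2 fold change of -0.06 (95% interval -0.20 to 0.08) and Socs5 0.12 (-0.03 to 0.27). Socs1 was at 22.9 and 21.4 CPM under 21h10 and at 26.1 and 34.1 CPM under mIL-21, a log2 fold change of -0.45 (-0.67 to -0.22) that missed the threshold at an adjusted p of 0.0782 by edgeR.

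For the phenotype genes, intervals were narrow. Gzmb, the serine protease granzyme B that killer cells release with perforin, was at 5491 and 5433 CPM under 21h10 and at 6073 and 6115 CPM under mIL-21, and its log2 fold change was -0.16 (95% interval -0.25 to -0.06). It missed the threshold with an adjusted p of 0.155 by edgeR although the libraries did not overlap. Tbx21, which encodes the effector factor T-bet, differed by -0.06 (-0.19 to 0.06). Tcf7, which encodes the memory-associated factor TCF1, differed by -0.01 (-0.11 to 0.09). Ifng, the effector cytokine interferon gamma, had a wider interval, -0.35 (-0.58 to -0.12), and 25.9% of its exonic bases lie in the annotated gene Gm49751. Il21r itself was at 212 CPM in both libraries of 21h10 and at 232 and 237 CPM with mIL-21 (log2 fold change -0.15, interval -0.25 to -0.05, adjusted p = 0.231 by edgeR).

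**Figure D2:**
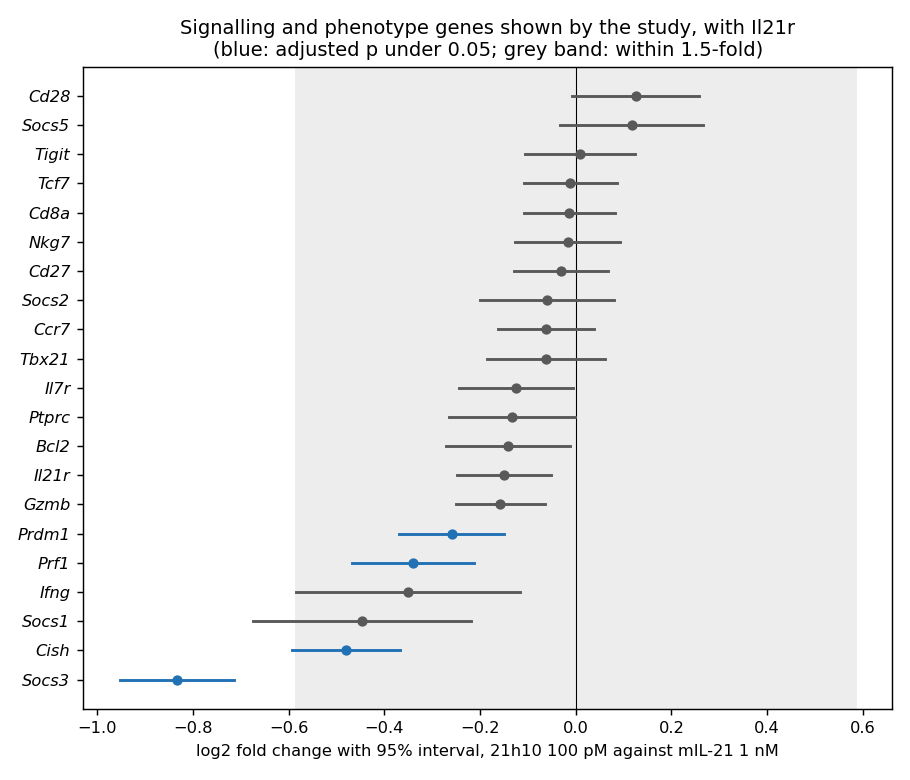
Log2 fold change, 21h10 at 100 pM over mIL-21 at 1 nM, on the x axis, with its 95% interval as a line, for 21 genes listed on the y axis. Blue marks the 4 genes past the threshold and the grey band spans 1.5-fold in either direction: Socs3 lies outside the band, and Cd28, Socs5 and Tigit are the genes with a point estimate above 0.

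Some genes known as targets or brakes of STAT signalling were lower with 21h10 at 100 pM. They were 2 of 16 feedback inhibitors (12.5%) and 6 of 22 genes linked to STAT3 (27.3%), where 0.737% of all genes were past the threshold. Socs3, the feedback inhibitor that blocks JAK kinases, was at 172 and 169 CPM under 21h10 and at 296 and 312 CPM with mIL-21. Its log2 fold change was -0.83 with a standard error of 0.0565, or 1.78-fold lower. Both conditions were far above the 6.57 and 6.67 CPM of unstimulated cells.

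Cish, an inhibitor of STAT5 and of T cell receptor signals, stood at 81.2 and 82.5 CPM under 21h10 and 112 and 117 CPM under mIL-21, 1.40-fold lower (adjusted p = 0.000148 by edgeR). An antisense gene, Gm17041, covers 7.46% of its exonic bases, and whether strand was used in counting is not given in the sources used here. Socs3 and Cish were the feedback inhibitors past the threshold. Over the 16, the median log2 fold change was -0.03, against -0.0023 over all genes.

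Of 22 listed genes linked to STAT3, 6 were lower and 0 higher (27.3%, against 0.737% of all genes), with a median log2 fold change of -0.20. Pim1, a survival kinase induced by STAT proteins, measured 204.7 and 205.3 CPM under 21h10 and 260 and 277 CPM under mIL-21, 1.31-fold lower (14.5% of its exonic bases are shared with antisense Gm26885). The related kinase gene Pim2 was 1.23-fold lower. Bcl3, a regulator of NF-kappaB, was at 117 and 111 CPM against 132 and 157 CPM, with 6.51% of its exons under antisense Gm16175. Batf, an AP-1 factor of effector T cells, measured 46.8 and 46.9 CPM under 21h10 and 55.9 and 61.1 CPM with mIL-21. Ahr, the aryl hydrocarbon receptor, was at 7.84 and 8.85 CPM against 11.9 and 10.6 CPM. The sixth of these genes was Il10, described with the cytokines. Among the 13 genes of the receptor and signalling chain 1 was past the threshold (7.69%, against 0.737% of all genes), Stat5a. It was lower, at 143.3 and 146.3 CPM under 21h10 and 169 and 173 CPM under mIL-21, and 12.6% of its transcript has a copy in Stat5b.

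Other regulators were among the lower genes and are given here one by one, picked after their values were seen. Zfp36, which encodes the RNA-binding protein tristetraprolin that destabilizes cytokine messages, was 1.35-fold lower, Mxd1, an antagonist of MYC, 1.39-fold, and Sbno2, a co-regulator downstream of IL-10 and STAT3, 1.39-fold. Arid5a, which stabilizes cytokine messages, was 1.27-fold lower and Zc3h12d, a regulator of RNA decay, 1.14-fold, the smallest fold among the 81. Ier3, an early response gene, was lower by 1.35-fold, and Gadd45g, a stress and cytokine response gene, by 1.59-fold. Map3k8, a kinase upstream of ERK, was 1.31-fold lower.

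Secreted signals gave the next group. Ccl4, a chemokine that draws immune cells, was at 2.13 and 2.21 CPM under 21h10 and at 5.47 and 4.99 CPM with mIL-21. This was 2.40-fold lower, with a log2 fold change of -1.26 and a standard error of 0.121. With 21h10 its level was near the 1.59 and 1.76 CPM of unstimulated cells. Lif, a cytokine of the IL-6 family, was likewise near its unstimulated level of 15.8 and 14.7 CPM, at 16.47 and 14.97 CPM with 21h10 but 31.0 and 33.2 CPM with mIL-21 (2.05-fold lower, adjusted p = 3.44e-07 by edgeR).

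Osm, which encodes oncostatin M of the same family and lies 16.5 kb from Lif on chromosome 11, was at 26.6 and 22.8 CPM under 21h10 and 41.6 and 40.3 CPM under mIL-21, 1.66-fold lower. Il10, the anti-inflammatory cytokine, was at 7.82 and 6.25 CPM under 21h10 and at 11.97 and 12.34 CPM under mIL-21, 1.76-fold lower. Both conditions exceeded the 0.465 and 0.491 CPM of unstimulated cells. Tnfsf10, which encodes the death ligand TRAIL, was 1.30-fold lower. These were 4 of the 26 cytokines and TNF-family ligands tested (15.4%), and Ccl4 was 1 of 10 chemokines (10%), against 0.737% of all genes. All were lower, and the list medians were -0.08 and -0.21 on the log2 scale.

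**Figure D3:**
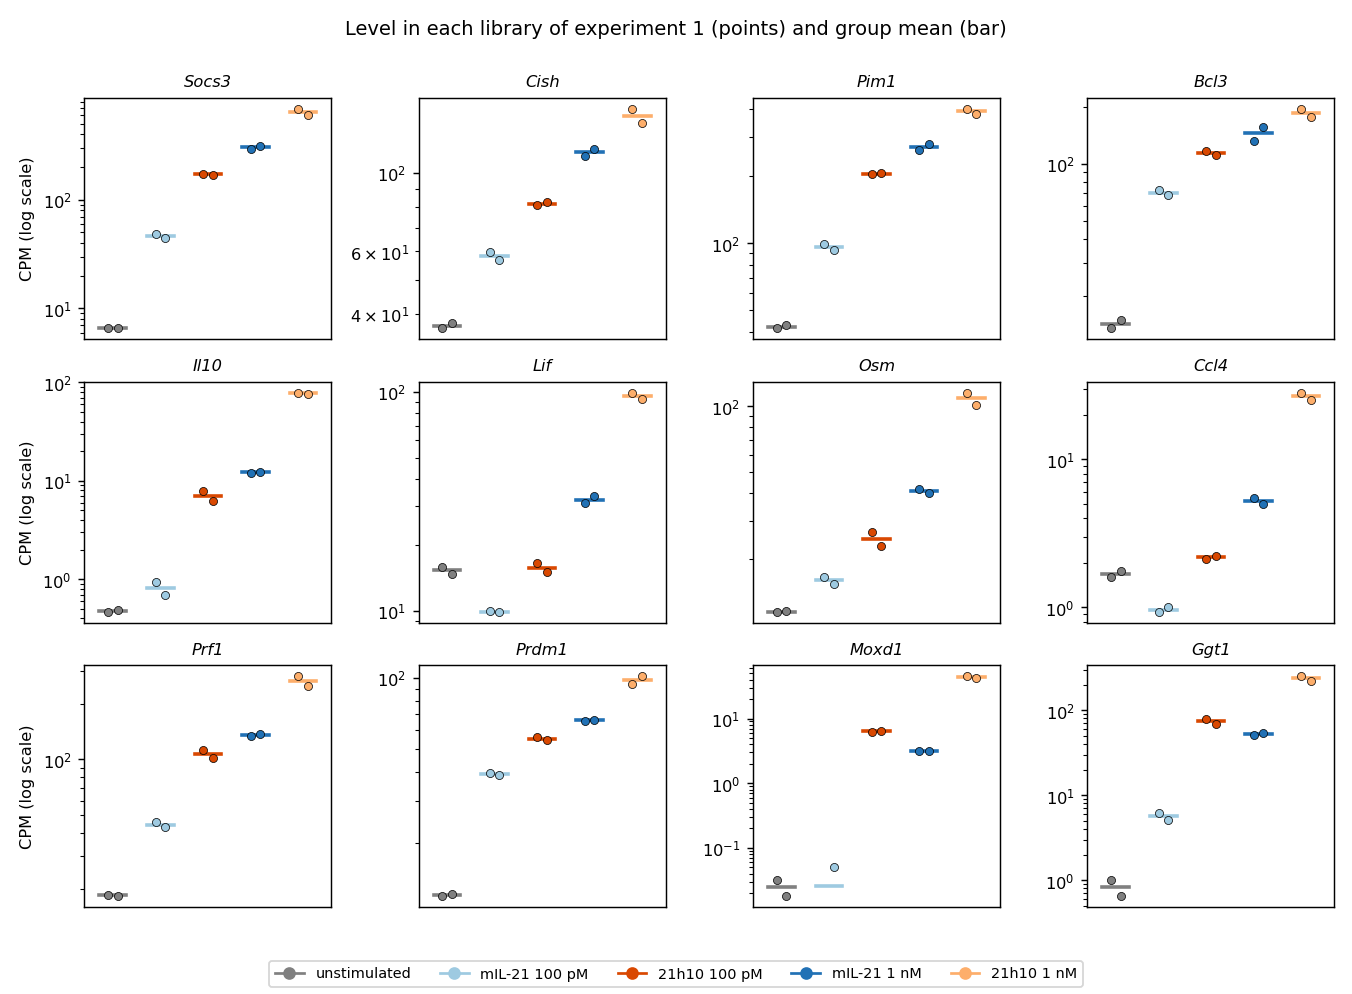
Level of 12 genes in each of the 10 libraries of experiment 1, in CPM on a log axis, with a bar at the group mean and a point for each of the 2 libraries (a library of mIL-21 at 100 pM with no Moxd1 read is not drawn). In the top 2 rows and for Prf1 and Prdm1 the orange points of 21h10 at 100 pM lie below the dark blue points of mIL-21 at 1 nM, and for Moxd1 and Ggt1 they lie above.

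Among surface receptors, Il2ra, the high-affinity IL-2 receptor chain, was at 1213 CPM in both libraries of 21h10 and 1508 and 1452 CPM under mIL-21, 1.22-fold lower (adjusted p = 0.00229 by edgeR). It was the single gene past the threshold among 28 cytokine receptors (3.57%, against 0.737% of all genes). Itgae, which encodes the CD103 integrin of tissue-resident T cells, was at 22.8 and 22.6 CPM under 21h10 and 29.6 and 29.1 CPM with mIL-21. Unlike most of the genes described so far, it was lowered by cytokine in experiment 2, by 2.63 on the log2 scale.

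Of 21 cytotoxic granule genes 1 was past the threshold (4.76%, against 0.737% of all genes), Prf1, which encodes the pore-forming protein perforin. It was at 113 and 101 CPM under 21h10 and at 133.8 and 137.1 CPM under mIL-21, 1.27-fold lower, and its adjusted p by edgeR was 0.31 without duplicate 2 of 21h10 at 100 pM. Of 24 effector and memory transcription factors 2 were past the threshold (8.33%), both lower. Prdm1, which encodes the effector factor BLIMP1, was at 55.9 and 54.4 CPM against 65.8 and 66.2 CPM, and Id2, an inhibitor of E proteins that favours effector cells, at 227 and 233 CPM against 289 and 282 CPM. Hlx, a homeobox factor of T helper type 1 cells, was 1.70-fold lower. The level of Hlx was 5.85 and 5.23 CPM under 21h10 and 8.80 and 9.87 CPM under mIL-21, where unstimulated cells had 0.195 and 0.236 CPM.

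Other large falls covered enzymes and less specific genes. Gcnt1, the enzyme that branches O-glycans on activated T cells, was 1.46-fold lower, and Serpinb1a, an inhibitor of granule proteases, 1.44-fold. Both were low in unstimulated cells, where Serpinb1a was at 0.486 and 0.309 CPM, against 33.7 and 31.0 CPM under 21h10 and 45.1 and 48.0 CPM with mIL-21. Mex3a, an RNA-binding protein, was 1.63-fold lower, and Frmd4b, a scaffold protein, 1.43-fold. Rrp1b, a nucleolar protein, stood at 94.0 and 96.3 CPM against 136.7 and 145.3 CPM (log2 fold change -0.57, standard error 0.0464), and Slc7a5, the large neutral amino acid transporter, at 202.5 and 199.2 CPM against 250.3 and 277.9 CPM. For each of these last 2 genes unstimulated cells, at 133.6 and 130.7 CPM for Rrp1b and 192.4 and 191.3 CPM for Slc7a5, were near 1 of the 2 conditions. Elovl6, a fatty acid elongase, was 1.19-fold lower, with 13.5% of its transcript copied in Gm11295.

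The 22 genes that were higher with 21h10 at 100 pM were a mixed group. Moxd1, a monooxygenase-like gene, was at 6.23 and 6.38 CPM under 21h10 and at 3.12 and 3.19 CPM under mIL-21, 2.00-fold higher (adjusted p = 0.000148 by edgeR). In unstimulated cells it was barely detected, at 0.0324 and 0.0182 CPM. Ggt1, which breaks down glutathione outside the cell, was at 78.2 and 69.0 CPM under 21h10 and 50.8 and 53.5 CPM under mIL-21, 1.41-fold higher. Moxd1 and Ggt1 were thus strongly induced genes that differed in the direction opposite to Socs3. C3, complement component 3, was 1.26-fold higher and also induced over unstimulated cells in experiment 1, from 0.822 and 1.18 CPM to 39.5 and 41.1 CPM under 21h10 and 31.6 and 32.3 CPM with mIL-21.

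Another set of the higher genes were ones that cytokine lowered in experiment 2. Kit, the stem cell factor receptor, was at 15.2 and 14.7 CPM under 21h10 and 11.6 and 10.4 CPM under mIL-21, and its change in experiment 2 was -2.93 on the log2 scale. Rgs16, which ends G protein signals, was 1.46-fold higher and changed by -2.12 in experiment 2, and part of its exons lies under antisense Gm28513. Slc16a10, an aromatic amino acid transporter, was 1.40-fold higher here and at -2.48 there. Ptger2, a prostaglandin E2 receptor, was 1.31-fold higher and Map2k6, a kinase that activates p38, 1.23-fold. Mapk14, which encodes p38 alpha itself, was 1.18-fold higher. Tsc22d3, a glucocorticoid-induced leucine zipper gene, was at 102 and 104 CPM under 21h10 and 84.9 and 79.3 CPM with mIL-21. Mast4, a kinase, and Gm6904 were 1.40-fold and 1.37-fold higher, and Tubb3, a tubulin, 2.09-fold at about 1 to 2 CPM. Within experiment 1, Ptger2, Map2k6, Tsc22d3, Gm6904 and Tubb3 had their highest mean of the 5 groups with 21h10 at 100 pM, above unstimulated cells.

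The largest folds among the higher genes belonged to replication-dependent histone H2A genes and are uncertain, because these genes are near-identical copies of one another. Hist1h2ao was at 4.85 and 7.85 CPM under 21h10 and at 2.199 and 1.753 CPM under mIL-21, and Hist1h2ap had almost the same values. Hist1h2ai was at 1.88 and 2.01 CPM against 0.818 and 0.989 CPM. Of Hist1h2ao 94.2% of the transcript has a copy elsewhere. Of the 62 histone genes tested these 3 were higher and 0 lower (4.84% past the threshold, against 0.737% of all genes), and the median over the list was -0.02. Over the 16 H2A genes alone, a group formed after the values were seen, the median was 0.87 and 1 was below 0. Replication-dependent histone messages are known to lack a poly(A) tail, and the part of library preparation in this difference was not tested. In experiment 2 Hist1h2ao, Hist1h2ap and Hist1h2ai were also higher with 21h10 than with mIL-21. Their log2 fold changes were 1.45, 1.47 and 0.91 at 10 nM, none past the threshold by edgeR. At 100 nM they were 2.29, 2.29 and 1.05, all past it. The copies limit these values in the same way.

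Interferon-inducible GTPases, proteins that attack vacuoles holding microbes, formed a family among the lower genes. They were grouped after their values were seen. Of 23 tested, 8 were past the threshold, against 0.737% of all genes, and all 8 were lower with 21h10 at 100 pM. Of the 23, 19 had a log2 fold change below 0, against 50.9% of all genes, and the median was -0.22. Gvin1 and Gm4070, both among the 8, have identical counts and are not separate measurements. Gm12250 was at 25.8 and 25.3 CPM with 21h10, at 34.0 and 33.7 CPM under mIL-21 and at 130 and 127 CPM in unstimulated cells. Irgm2 was at 40.0 and 40.4 CPM against 51.4 and 51.5 CPM, and Igtp at 128 and 127 CPM against 153 and 151 CPM. For these 3 genes the level in unstimulated cells was the highest and that of 21h10 at 100 pM the lowest. Over the 23, unstimulated cells had the highest mean for 12, and others, such as Gbp8, rose from 36.0 CPM in unstimulated cells to 58.5 CPM or more in each treated group. In experiment 2 cytokine raised 9 of the 23 and lowered 12. Of those past the threshold here Gvin1, Gm4070, Gm8979 and Gbp4 were raised there, by 1.27, 1.27, 1.25 and 0.38 on the log2 scale, while Igtp, Irgm2, Tgtp2 and Gm12250 changed by -1.01, -0.97, -1.14 and -0.34.

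Levels of these genes did not follow dose in 1 direction. Igtp averaged 213 CPM with mIL-21 at 100 pM and 152 CPM at 1 nM, but 127 CPM with 21h10 at 100 pM and 255 CPM at 1 nM. For 11 of the 23 genes the mean of 21h10 at 100 pM was the lowest of the 5 groups, as for 1340 of the 13974 genes tested. Tgtp2 was an exception, lowest with 21h10 at 1 nM. Gbp4 was at 93.1 and 105 CPM against 131 and 115 CPM, and Gvin1 at 187 and 169 CPM against 241.7 and 209.4 CPM. Counting could not separate some of these genes: Gvin1 and Gm4070 have identical counts, Tgtp2 and Gm8979 are copied in full by Tgtp1 and Gm8989, and Igtp and Irgm2 share 8.01% of the exonic bases of Igtp. Tgtp1 itself missed the threshold, with a log2 fold change of -0.198 (adjusted p = 0.352 by edgeR). Its copy Tgtp2 was at -0.255 (adjusted p = 0.0412 by edgeR). A separate list of 38 interferon-stimulated genes, which holds 11 of these 23, had 3 past the threshold, Igtp, Irgm2 and Gbp4. They made 7.89% of the list, against 0.737% of all genes, and the median log2 fold change of the list was -0.06.

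**Figure D4:**
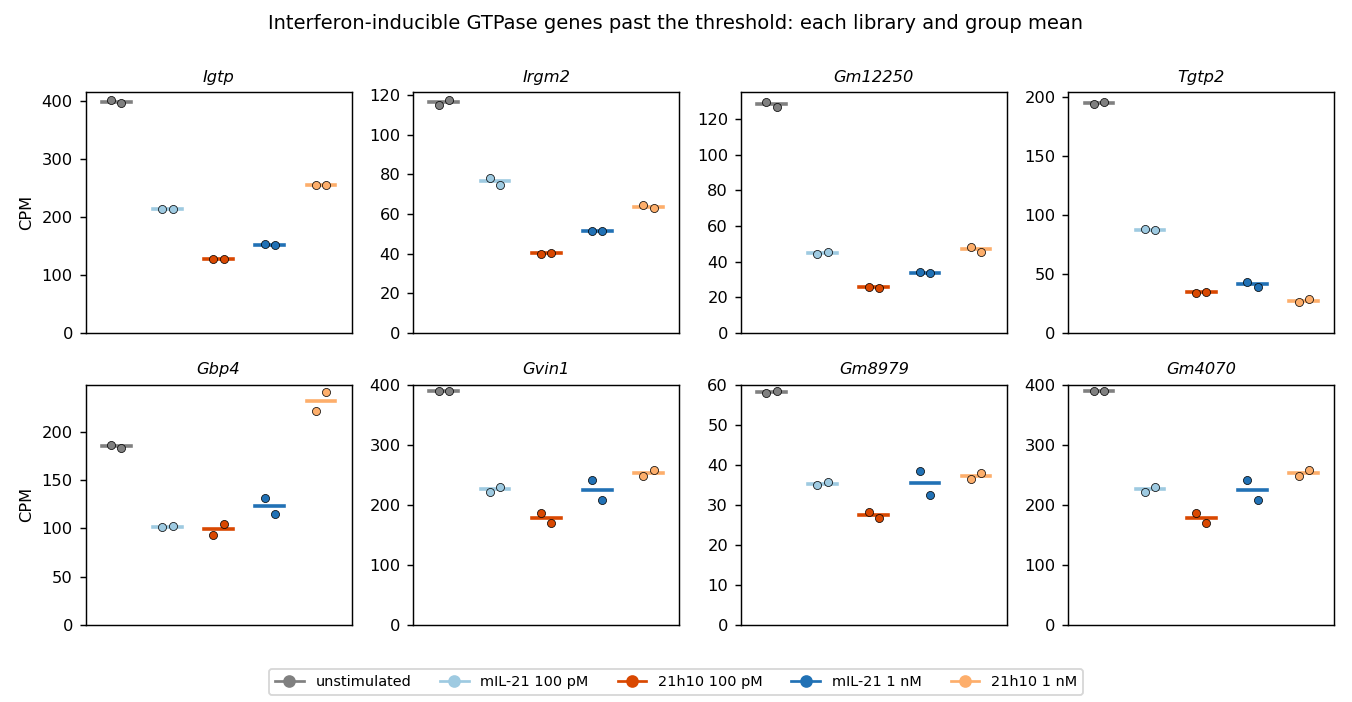
Level in CPM, on a linear axis from 0, of the 8 interferon-inducible GTPase genes past the threshold, with a point for each library and a bar for the mean of each group of experiment 1. Unstimulated cells (grey) are highest for all but Gbp4, and 21h10 at 100 pM (dark orange) is lowest for all but Tgtp2.

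Promoters of the genes that differed were read for the palindrome TTCNNNGAA, which STAT dimers are known to bind. The windows ran from 250 bases before to 50 after each gene start, and a palindrome gives the same matches on both strands. Of the 62 lower genes that matched a RefSeq promoter, 17 held it (27.4%), and of 20 higher genes 4 (20%). Among the 10254 tested genes with a promoter the share was 8.37%, and it was 9.55% among all 27025 genes with a RefSeq promoter window. A match describes the letters only. The promoters shown, with the matched letters in capitals, are those of the signalling genes Socs3, Zfp36 and Sbno2 and of the higher gene Moxd1. Those of the GTPase genes Igtp, Irgm2, Tgtp2 and Gm12250 are also shown. They were picked because they hold a match, and Sbno2 has another window with a match that is not printed. The lower genes Cish, Pim1, Pim2, Bcl3, Batf, Il10, Lif, Osm and Stat5a gave no match before a gene start, for want of a window or of the palindrome. The same was true of the other GTPase genes past the threshold, Gbp4, Gvin1, Gm4070 and Gm8979. The stretches are from RefSeq on GRCm38.p6, written 5′ to 3′ on the strand of the gene.

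Socs3, chr11:117969492-117969540, minus strand: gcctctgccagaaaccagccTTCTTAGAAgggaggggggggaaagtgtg
Zfp36, chr7:28379229-28379265, minus strand: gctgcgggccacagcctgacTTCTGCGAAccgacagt
Sbno2, chr10:80101188-80101231, minus strand: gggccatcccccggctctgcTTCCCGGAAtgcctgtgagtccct
Moxd1, chr10:24223347-24223395, plus strand: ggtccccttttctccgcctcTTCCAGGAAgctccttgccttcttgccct
Igtp, chr11:58199491-58199539, plus strand: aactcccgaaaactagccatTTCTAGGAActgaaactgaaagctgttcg
Irgm2, chr11:58214882-58214930, plus strand: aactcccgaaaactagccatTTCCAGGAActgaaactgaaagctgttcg
Tgtp2, chr11:49064265-49064313, minus strand: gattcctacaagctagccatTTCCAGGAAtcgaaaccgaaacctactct
Gm12250, chr11:58183762-58183810, plus strand: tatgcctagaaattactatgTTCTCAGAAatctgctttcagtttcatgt

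The Socs3 match begins 154 bases before the start, that of Zfp36 17 bases and that of Moxd1 150 bases. In the GTPase genes it begins 45 bases before the start of Igtp, 75 before Irgm2, 81 before Tgtp2 and 61 before Gm12250. Over the 49 bases shown, Igtp and Irgm2 have the same base at 48 positions, and Irgm2 and Tgtp2 at 36. Gm12250, Igtp and Irgm2 are neighbours on chromosome 11, with 9.36 kb between the first pair and 7.38 kb between the second, whereas Tgtp2 lies elsewhere on the same chromosome.

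The genes that differed were set beside libraries that had no part in choosing them. Experiment 2 gave the response to cytokine as the mean of its 4 treated groups against its unstimulated cells. Of the 81 lower genes, 71 were raised by cytokine there (87.7%, against 27.5% of all genes tested), 6 were lowered and the median log2 fold change was 1.501. Of the 22 higher genes, 11 were lowered (50%, against 30.1%) and 6 raised, with a median of -0.27. With mapped-read library sizes, which moved the median over all genes from -0.01 to -0.26, 16% of all genes were raised and 46.8% lowered there, and 68 of the 81 lower genes were raised and 7 lowered. The lower genes were thus mostly ones that cytokine raised in experiment 2 under either scaling, as the plot of the response there shows. Some of those raised there went the other way in experiment 1. Gvin1 averaged 390 CPM in unstimulated cells of experiment 1 and 178 to 254 CPM in its treated groups. Gm8979 averaged 58.3 CPM in the same unstimulated cells and 27.5 to 37.3 CPM in the treated groups.

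**Figure D5:**
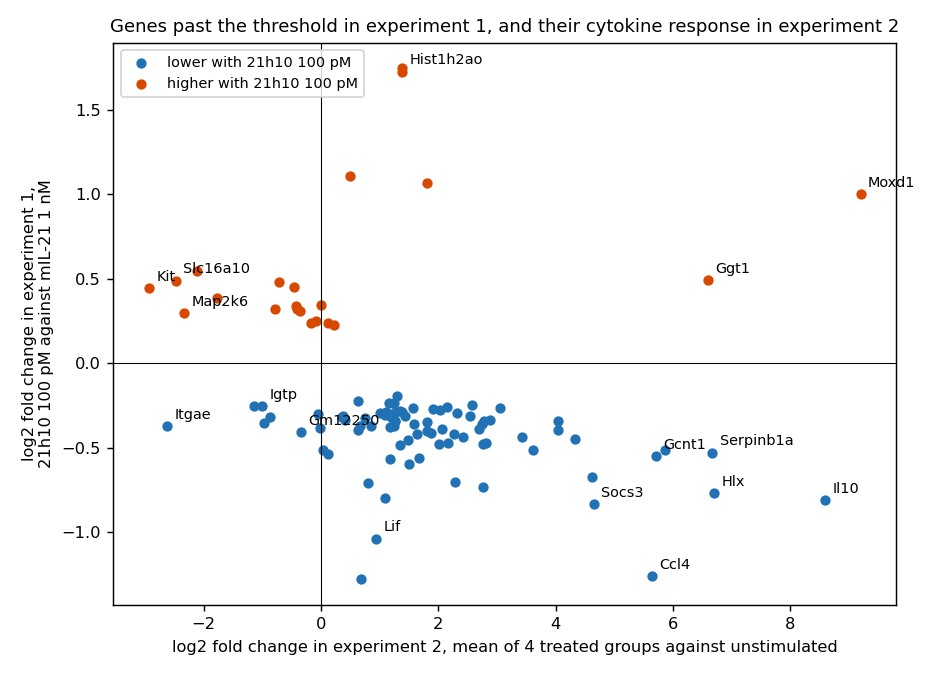
Each of the 103 genes past the threshold, by its response to cytokine in experiment 2 (x axis, log2 fold change of the mean of 4 treated groups against unstimulated cells) and its difference in experiment 1 (y axis, log2 fold change, 21h10 at 100 pM over mIL-21 at 1 nM). Most blue points, the lower genes, lie right of 0, while Itgae and Igtp lie left, and the orange points of Moxd1 and Ggt1 are the strongly induced genes above 0.

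A like pattern was seen between the remaining treated groups of experiment 1, which share no library with the comparison. Between 21h10 at 1 nM and mIL-21 at 100 pM, 69 of the 81 lower genes were higher with 21h10 (85.2%, against 29.3% of all genes) and 3 lower (30.2% of all genes). Of the 22 higher genes 8 were higher there and 10 lower. With mapped-read library sizes the shares of all genes were 18.9% higher and 42.8% lower, and of the 81 lower genes 65 were higher and 6 lower. Both of those groups were nevertheless fitted together with the compared ones.

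The difference reached beyond the genes past the threshold. Of the genes raised by cytokine in experiment 2 by at least 1 on the log2 scale, 1061 were tested in experiment 1. Their median log2 fold change in the comparison was -0.11 (quartiles -0.30 and 0.02), and 71.5% were below 0, against a median of -0.0023 and 50.9% over all genes. Of this class 60 were among the 81 lower genes and 5 among the 22 higher. The 1016 genes lowered by at least 1 had a median of 0.0068, and 47.9% were below 0. Taking the libraries in the 4 possible pairs of 1 from each condition, the median of the raised class lay between -0.11 and -0.0942. Against unstimulated cells of experiment 1, the raised class had a median of 1.42 for mIL-21 at 1 nM and of 1.23 for 21h10 at 100 pM, with the unstimulated libraries shared. The lowered class had medians of -0.05 and -0.06 against the same cells, near the 0 and -0.0084 of all genes, so the fall of this class in experiment 2 was not seen in its medians in experiment 1. In the raised class the difference between conditions was thus small beside the response itself.

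At the doses of experiment 2 the same genes did not keep their direction as a group. At 10 nM, where 1 of 13772 genes was past the threshold between the cytokines (0.00726%), the differences between them had a median log2 value of 0.0093 for the 81 lower genes and -0.02 for the 22 higher. Duplicates spread more in experiment 2, with a coefficient of variation by edgeR of 8.80% against 4.32% in experiment 1. Between the cytokines the size of the log2 fold change had a median of 0.129 and a 95th percentile of 1.03 at 10 nM. At 100 pM in experiment 1 these were 0.190 and 1.04. The part of the spread in the low count was not tested. By edgeR 0 of the 103 were past the threshold at 10 nM, while DESeq2 called 0 of the lower and 2 of the higher genes and limma 0 and 0. An unadjusted p under 0.05 by edgeR was reached by 18 of the 81 and 7 of the 22. Both were larger shares than the 1207 of all 13772 genes. At 100 nM, where 8.53% of genes differed (4.02% higher and 4.52% lower with 21h10), 21 of the 81 lower genes were higher with 21h10 and 10 lower. Of the 22 higher genes 5 were higher, among them Hist1h2ao, Hist1h2ap and Hist1h2ai, and 7 lower. The split over all genes at 100 nM was 553 higher and 622 lower, and with mapped-read library sizes it was 403 and 934, with 17 of the 81 lower genes higher and 14 lower.

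The order of the groups in experiment 1 placed 21h10 at 100 pM between the doses of mIL-21 for 62 of the 81 lower genes, and for 40.5% of all genes, where the choice of these genes fixes that they lie below mIL-21 at 1 nM. Socs3, for example, averaged 46.2 CPM under mIL-21 and 171 CPM under 21h10 at 100 pM, but 304 CPM under mIL-21 and 646 CPM under 21h10 at 1 nM. Its groups did not overlap at any step of this order. For 9 of the 81 genes 21h10 at 100 pM was the lowest of all 5 groups (11.1%, near the 9.59% of all genes). Of these, 7 were GTPase genes, with Gvin1 and Gm4070, which have identical counts, both among them. For 9 of the 22 higher genes it was the highest of all groups (9.09% of all genes), among them Tsc22d3, Ptger2, Map2k6 and Phf11b. Between the doses of mIL-21 67 of the lower genes rose and 5 fell, against 17.9% and 16.6% of all genes. Between those of 21h10 75 rose and 2 fell, against 20.1% and 19.1%. With mapped-read library sizes 10.4% of all genes rose and 29.5% fell between the doses of mIL-21, where the median over all genes moved from -0.0006 to -0.12, and 62 of the lower genes rose and 5 fell. Between those of 21h10 the shares were then 14.5% and 23.6%, and 73 rose and 2 fell. These dose steps share a group with the comparison described, so the choice of the lower genes favours a rise over either step. The choice of the higher genes likewise favours a fall. Of the higher genes 16 fell between the doses of 21h10 and 4 rose, and 8 fell and 5 rose between those of mIL-21.

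Among the lower genes Ctcfl, Fgf9 and Grk1 were past the threshold between neither pair of doses. Ctcfl, a germline relative of the insulator protein CTCF, was at 6.52 and 5.87 CPM with 21h10 at 100 pM and 9.67 and 10.4 CPM with mIL-21 at 1 nM. Fgf9, a growth factor, was at 4.49 and 3.46 CPM against 6.65 and 6.90 CPM, and Rorb, a nuclear receptor, at 1.13 and 0.679 CPM against 1.89 and 2.27 CPM. With Grk1, Phex, Olfr856-ps1 and Zfp488 these made 7 genes, grouped after their values were seen. Rorb, Phex, Olfr856-ps1 and Zfp488 each passed the threshold between 1 pair of doses. All 7 were lower with 21h10 here, but in experiment 2 their log2 fold changes with 21h10 over mIL-21 lay between 0.54 and 1.03 at 10 nM. None was past the threshold there, with adjusted p by edgeR between 0.419 and 0.586. At 100 nM the log2 fold changes lay between 0.65 and 1.11. Ctcfl, Fgf9, Grk1 and Phex were past the threshold at that dose, and Rorb, Olfr856-ps1 and Zfp488 were not. The share of mapped reads that fell on genes was 81.8% and 84.8% with 21h10 at 100 pM and 82.6% and 80.5% with mIL-21 at 1 nM, and in experiment 2 it was lower with 21h10, between 66.2% and 71.0%, than with mIL-21, between 70.6% and 75.2%. Copies of parts of Ctcfl, Grk1 and Zfp488 lie in 45, 18 and 52 other genes. The part of either in these differences was not tested.

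Of the 28 lists other than markers, 16 held a gene past the threshold. The other 12 are put together here because they held none by edgeR, so their count of 0 is fixed by that choice. DESeq2 called 0 of their 376 tested genes and limma 0 of 369, and without the filter on low counts Bbc3 and Tyms were past the threshold. By edgeR 35 of the 376 had an unadjusted p under 0.05 (9.31%), near the 10.0% of all genes. With DESeq2 51 of the 376 did, against 1029 of all 13974, and with limma 56 of 369, against 851 of 11159. Those 2 shares were larger than over all genes, so the nearness holds for edgeR only. The lists covered inhibitory, costimulatory and NK-type receptors, the BCL2 family, the T cell receptor complex, glycolysis, DNA replication, mitosis, endoplasmic reticulum chaperones, MHC genes, ribosomal proteins and oxidative phosphorylation. All 39 DNA replication genes, all 36 mitosis genes and all 25 glycolysis genes had an interval within 1.5-fold, as did 94.7% of all genes with a mean of at least 1 CPM. Median log2 fold changes were 0.02 for DNA replication, 0.02 for mitosis, 0.04 for glycolysis and 0.07 for the 85 ribosomal proteins. Among 12 NK-type receptors 8 had an interval within 1.5-fold, so that the data bound these less tightly.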

How the data were processed

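RNA from 20 libraries was sequenced by the authors on an Illumina NovaSeq from mRNA libraries. Per the labels and the submitters' processing notes, reads were mapped to mm10 (GRCm38) with TopHat2 2.0.11 and Bowtie2 2.2.6, with SAMtools 0.1.8, bedtools 2.25.0 and edgeR also named. The deposited counts are raw whole reads per RefSeq transcript, and the deposited RPKM values were made by the authors from them. The counting settings, use of strand and annotation version are not given in the sources used here. Each gene symbol was represented by its longest transcript.

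Counts of the 10 libraries of an experiment were filtered (filterByExpr, minimum count 10, minimum total 15), scaled by TMM and tested with edgeR 4.0.16 (glmQLFit and glmQLFTest, R 4.3.3), calling genes at an adjusted p (Benjamini-Hochberg) below 0.05, with no block and 1 spread shared by all groups. CPM values use TMM-scaled library sizes, and intervals cover 95%. With 2 libraries against 2, an exact permutation test cannot go below 0.33. The study's methods state for several assays together, RNA-seq among them, that replicates came from separate tissue preparations or donors. The labels give only dup1 and dup2, and whether each library came from its own animal is not given. The p-values measure only the spread between these duplicates. The correlation of same-numbered duplicates was between -0.06 and 0.03 in experiment 1 and between -0.17 and 0.23 in experiment 2, not above 0.1 for every pair, so the numbers were not taken to pair libraries. Alternatives were DESeq2 1.42.0, limma 3.58.1 on log2(RPKM + 1), no filter, the compared groups alone, a replicate block, the most-read transcript, mapped-read library sizes and each library left out. Named genes were the 12 largest rises and 18 largest falls past the threshold without overlap and at a mean of at least 1 CPM, called members of 35 lists, Il21r and the genes shown by the study. Others were chosen after their values were seen. The comparison, lists and rules were chosen with earlier results of these data known. Overlaps and copies were checked with GENCODE M21 and BLAST 2.17.0. The scripts were tested on simulated data.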

Additional observations from a re-analysis of the deposited data

How the results depend on the processing

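The count of 103 genes became 41 with limma on log2(RPKM + 1), of which 38 were among the 103, 195 without a filter (102 shared) and 133 with DESeq2 (96 shared). It was 79 with the compared groups alone, 85 with a replicate block (84 shared) and 99 with mapped-read library sizes (75 lower and 24 higher), and none of the 103 reversed. Leaving out 1 library at a time gave 31 to 199. Of the 103 genes, 21 were past the threshold in all 10 such fits and all 7 other alternatives. The same-numbered duplicates did not deviate together in experiment 1, and in experiment 2 their correlations lay between -0.17 and 0.23, over 0.1 for some pairs only, so the replicate block was not taken as a pairing. For the other comparisons, leaving out 1 library gave 3505 to 6085 genes between the cytokines at 100 pM and 3009 to 5499 between the doses of mIL-21, the lowest both without duplicate 1 of mIL-21 at 100 pM. In experiment 2, values are percentages of the genes each fit tested. Leaving out 1 library gave 0% to 0.0557% at 10 nM and 2.58% to 13.4% at 100 nM. At 10 nM the 0.00726% became 0.0944% with DESeq2, 0% with limma, 1.10% with the compared groups alone (117 genes higher and 26 lower), 0.924% without a filter and 0.029% with a replicate block, and at 100 nM the 8.53% became 15.6% with the compared groups alone. The median of the genes raised in experiment 2, recomputed under alternatives chosen after seeing the data, stayed between -0.12 and -0.06. The causes were not tested. Genes of low count had wider intervals: 79% of all genes tested had one within 1.5-fold, against 94.7% of those at 1 CPM or more.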
